A study of Schizosaccharomyces pombe with 9 samples.

Results

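The double mutant E112K clr6-1 of the fission yeast Schizosaccharomyces pombe was compared with wild type (WT) by RNA sequencing of poly(A) RNA from whole cells. Its genotype is htb1-E112K clr6-1: the histone H2B gene htb1 carries a glutamate-to-lysine substitution, and clr6, which encodes a histone deacetylase, carries the mutant allele clr6-1. The comparison used 3 libraries of the double mutant and 3 of WT, 6 of the 9 libraries of the study. The remaining 3 come from a strain labelled htb1-E112K (E112K), which was used to see where the double mutant differs from the single H2B mutant. A clr6-1 strain without the H2B substitution is not analysed here, so differences between E112K clr6-1 and E112K cannot be assigned to clr6-1 alone or to its combination with E112K. Genes were included if they had enough counts for a test, which left 5119 of 5212 listed genes. The labels do not give growth temperature, growth phase, mating type or selection markers, and they do not say whether the replicates were separate cultures. The p-values thus reflect only how these libraries scatter, which can be technical.

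H2B is one of the core histones around which DNA is wrapped. The glutamate replaced in the mutant lies on the acidic patch, a surface of the nucleosome that many chromatin proteins bind. S. pombe has a single H2B gene. Clr6 is a class I histone deacetylase of fission yeast, related to budding yeast Rpd3 and mammalian HDAC1. It works in several complexes built on Sin3-family scaffolds, removes acetyl groups from histones H3 and H4, and helps to keep promoters, heterochromatin and antisense transcription silent. The allele clr6-1 is known as temperature-sensitive.

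The altered codon can be located in the RefSeq reference sequence (assembly ASM294v3). It lies in the single exon of htb1 on chromosome III, plus strand, at chrIII:1412805-1412837, and is shown here because it is what defines both mutant strains. The capitals mark the glutamate codon, which is codon 113 with the start codon counted, and without it has the number given in the name E112K.
htb1: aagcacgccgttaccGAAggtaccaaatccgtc
This is the reference sequence. The deposited counts cannot tell whether a library has the substitution or the clr6-1 mutation.

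Library totals lay between 16469576 and 20013351 counts over the 9 libraries. Levels are given in CPM (counts scaled to a common library total) after normalization for library composition, and changes as log2 differences, fitted with edgeR, with their standard error (SE) and an adjusted p. A gene was called higher or lower at an adjusted p under 0.05. In bulk RNA of this kind, fewer cells with a transcript and less transcript per cell cannot be told apart. Nothing in the sources used here states the counting strand, so reads of overlapping genes cannot be separated with certainty, and such overlaps are named where they matter. Apart from the labelled mutations, the strains differ in whether ura4, mat1-Mc, bag101 and SPBC1683.06c have counts at all, or nearly so, and the labels do not say which of these genes each strain carries. Also, the first E112K library lay apart from the other two for several genes of iron, glucose and respiration. These differences are given with the results they touch.

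Both altered genes were first examined for their own transcripts. Transcripts of htb1 stood at 1645, 1643 and 1719 CPM in WT, at 5248, 5151 and 4995 in E112K and at 5556, 5319 and 5431 in the double mutant. Both mutants thus lay far above WT with no overlap, and the double mutant lay slightly above E112K. The change against WT was 1.70 ± 0.039 (SE, adjusted p = 4.59e-13), a 3.26-fold rise, while the log2 difference from E112K, 0.083 ± 0.038 (SE, adjusted p = 0.0614), did not pass. The gene overlaps sec5 on the opposite strand. For clr6 the libraries stood at 135, 144 and 148 CPM in WT, at 85.6, 86.7 and 89.1 in E112K and at 119, 121 and 118 in the double mutant. The double mutant was below WT and above E112K without overlap, with log2 differences of -0.26 ± 0.037 (SE, adjusted p = 2.36e-05) and 0.45 ± 0.039 (SE, adjusted p = 2.29e-07). An overlap with cys11, which rose from 231 ± 12.6 to 409.5 ± 14 CPM on the opposite strand, touches this value.

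Among the other core histones the changes were smaller than that of htb1. Of 11 core histone genes tested, htb1 included, 5 were higher, 5 lower and 1 did not pass, where 41.7% of all tested genes were higher and 42% lower. The second largest change was that of cnp1, the gene of centromeric histone CENP-A. Its libraries stood at 32.5, 35.8 and 31.3 CPM in WT, at 24.3, 25.6 and 26.3 in E112K and at 67.8, 70.3 and 68.1 in the double mutant. Here the double mutant was 2.07-fold above WT and 2.7-fold above E112K, with no overlap in either case. Transcripts of the H2A genes hta1 and hta2 changed by log2 -0.0082 (adjusted p = 0.833) and -0.38 (adjusted p = 2.96e-07). The H4 gene hhf2 rose 1.28-fold, and the H3 gene hht2 rose 1.14-fold. Their partners hhf1, hhf3, hht1 and hht3 changed by -0.11, -0.25, -0.14 and -0.22. These gene copies have near-identical coding sequences, so the split of reads among them is uncertain.

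Subunits of the Clr6 complexes were mostly higher in the double mutant. Of 15 tested, 9 rose (60%, beside 41.7% of all tested genes), 4 fell and 2 did not pass, and the median log2 change was 0.43 beside -0.000396 over all tested genes. In E112K the median of the same genes was -0.21, and 12 of them were higher in the double mutant than in E112K, where 40.2% of all tested genes were. The rises included sds3, a subunit of the larger Sin3-type complex, at 59.9, 61.9 and 62.7 CPM in WT, at 49.4, 43.1 and 45.3 in E112K and at 109, 101 and 103 in the double mutant. Each E112K library was below, and each E112K clr6-1 library above, all of WT. The complex subunit rxt3 rose 1.8-fold and rxt2 rose 1.42-fold. For nts1, which overlaps SPCC24B10.18, the rise was 1.98-fold. Besides clr6, the members that fell were alp13, cph2 and prw1, with log2 changes of -0.25, -0.33 and -0.38.

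Other deacetylases and heterochromatin factors changed in both directions. Of 11 other deacetylase genes and their partners, 4 rose (36.4%) and 6 fell (54.5%), beside 41.7% and 42% of all tested genes. The largest change was in clr2, a subunit of the SHREC silencing complex, at 92.7, 89.4 and 89.4 CPM in WT, at 94.3, 89.0 and 89.1 in E112K and at 44.6, 41.1 and 41.5 in the double mutant. The double mutant lay apart from both other strains, which overlapped, at -1.09 ± 0.046 (SE, adjusted p = 1.17e-10) against WT. Of 21 heterochromatin and RNA interference genes, 11 rose (52.4%), 9 fell (42.9%) and 1 did not pass. Lower levels were found for the Argonaute-chaperone gene arb1 (log2 -0.74), for rik1 of the H3K9 methyltransferase complex (-0.65) and for tas3 of the RITS complex (-0.64). The H3K9 methyltransferase gene clr4 rose 1.59-fold. It overlaps meu6, a meiotic transcript on the opposite strand that went from 4.58 ± 0.429 to 252 ± 3.99 CPM.

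**Figure D1:**
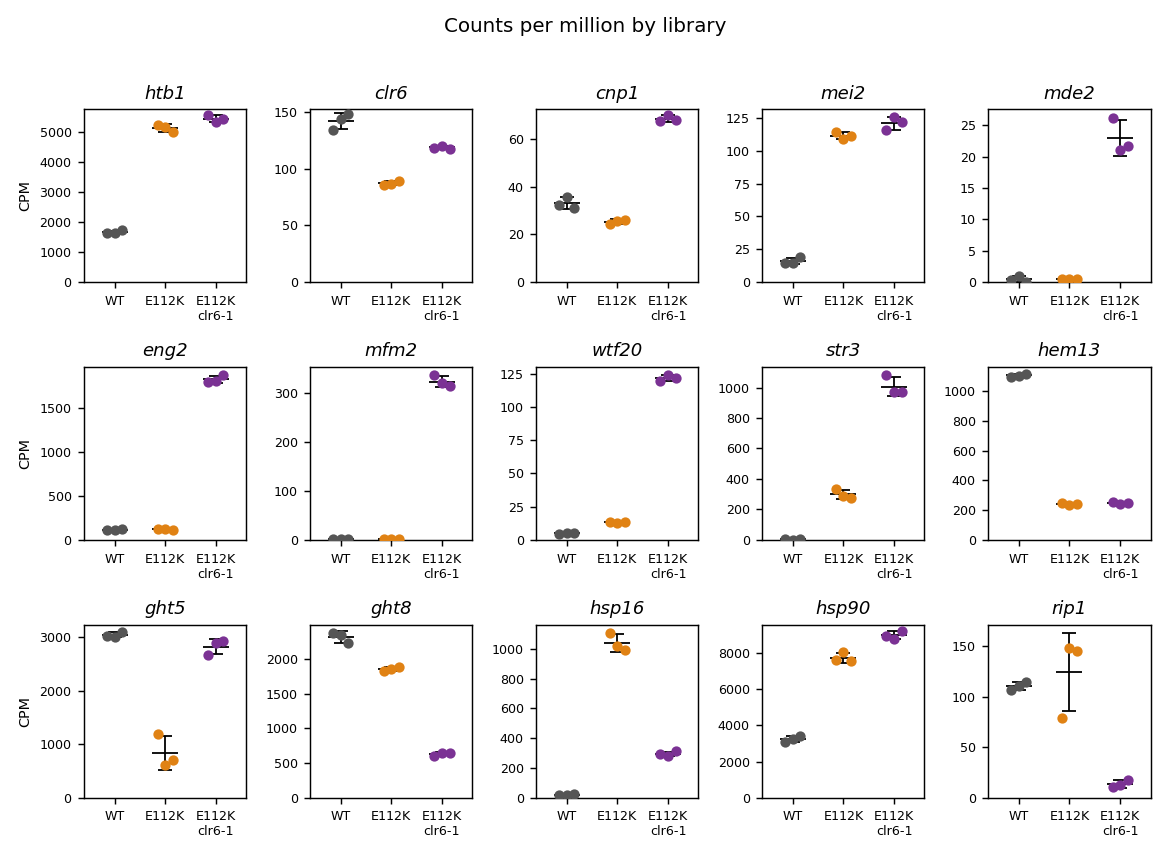
CPM in each library for 15 genes named in the text, with points for the 3 libraries of each strain and bars for mean and SD. The double mutant shares the rise of htb1 and the fall of hem13 with E112K, while mde2, eng2, mfm2 and wtf20 are far higher in E112K clr6-1 than in the other strains and ght5 is low in E112K alone.

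Over the whole transcriptome, 4286 of 5119 tested genes differed between the double mutant and WT, which is 83.7%. Of these, 2137 were higher (41.7%) and 2149 lower (42%). Most differences were small: 2763 of the called genes (64.5%) changed by less than 1.5-fold, and the median absolute log2 change was 0.355. Changes of at least 2-fold were unevenly split, with 516 genes higher (10.1%) and 166 lower (3.24%), and beyond 4-fold 208 genes were higher and 29 lower. No double mutant library overlapped the WT range for 2152 higher genes (42%) and 2188 lower ones (42.7%). Of 2889 tested genes that overlap no other listed gene, 10.7% were at least 2-fold higher and 3.39% at least 2-fold lower. Against E112K, the double mutant had 2060 genes higher (40.2%) and 1975 lower (38.6%). In E112K against WT, 37.6% of tested genes were higher and 38.9% lower. The mutants share the WT libraries, so their changes against WT are given side by side below and differences between them are taken from the direct comparison.

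**Figure D2:**
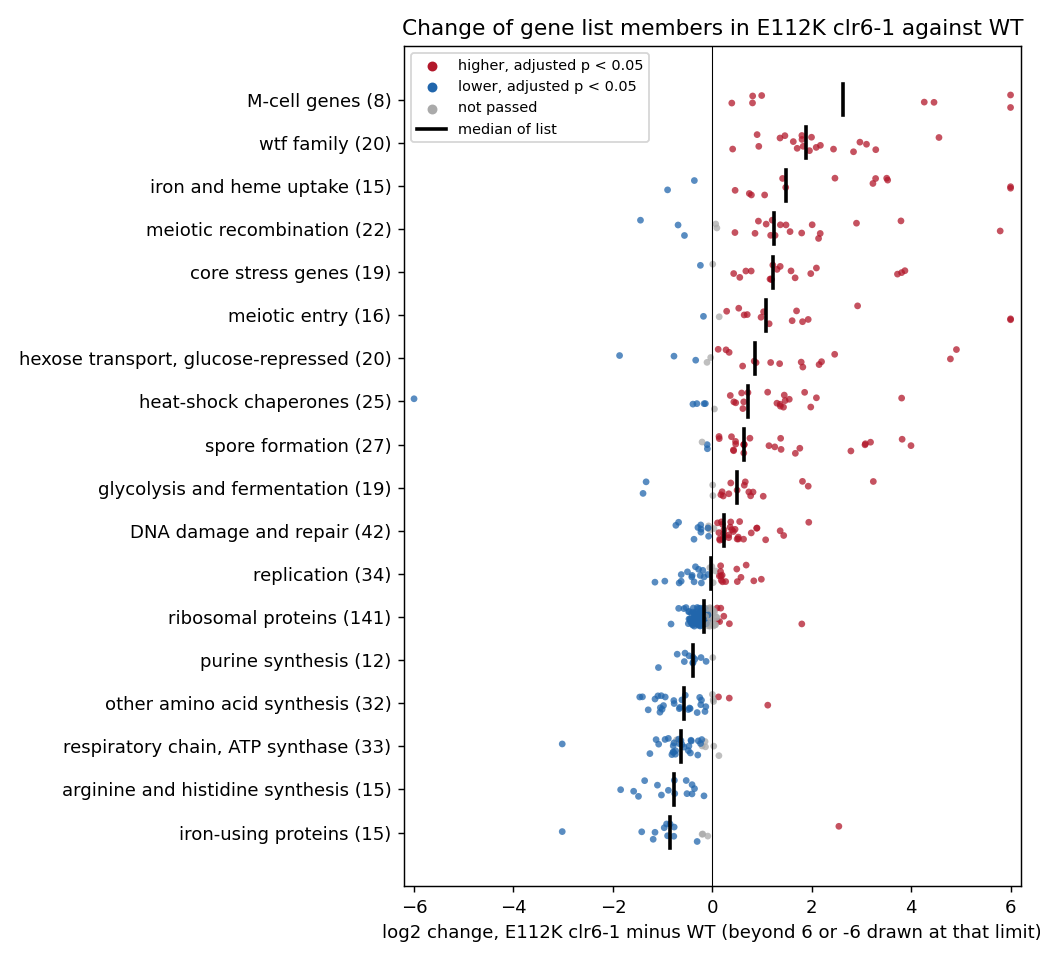
Log2 change of each tested member of 18 gene lists, E112K clr6-1 minus WT, with red for higher, blue for lower and grey for not passed, black bars for list medians and the number of tested members in brackets. M-cell, wtf and iron uptake genes have the highest medians and iron-using, arginine and histidine genes the lowest.

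Meiosis in fission yeast is set off by starvation and mating. The transcription factor Ste11 switches on mating and early meiotic genes, among them mei2, whose RNA-binding product commits cells to meiosis. A wave of recombination genes follows, and the forkhead factor Mei4 then switches on the genes of the meiotic divisions and spore building. In vegetative cells these genes are normally kept low.

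Genes of all 3 stages were mostly higher in the double mutant than in WT. Of 16 genes of meiotic entry, 14 rose (87.5%, beside 41.7% of all tested genes), 1 fell and 1 did not pass. The median log2 change was 1.09, beside 1.13 in E112K. Compared directly, 9 of the 16 were higher in the double mutant than in E112K and 2 lower, beside 40.2% and 38.6% of all tested genes. Of the 16 genes, 9 rose at least 2-fold, where 10.1% of all tested genes did. Transcripts of mei2 stood at 14.5, 14.7 and 18.8 CPM in WT, at 114, 109 and 111 in E112K and at 116, 125 and 122 in the double mutant. Both mutants lay far above WT and close to each other, with 2.92 ± 0.073 (SE, adjusted p = 9.82e-13) against WT and 0.12 ± 0.059 (SE, adjusted p = 0.0766) against E112K. For ste11 the libraries stood at 34.9, 36.5 and 36.5 CPM in WT, at 169, 159 and 148 in E112K and at 88.7, 118 and 122 in the double mutant. The double mutant lay between WT and E112K without overlapping either, 3.04-fold above WT and at a log2 difference of -0.53 ± 0.092 (SE, adjusted p = 0.000144) from E112K. The zinc-finger factor genes rsv1 and rsv2 rose 3.81-fold and 3.52-fold. The single member that fell was mmi1 (log2 -0.18), whose product removes meiotic transcripts in vegetative cells. The karyogamy gene tht2 did not pass, at 0.14 (adjusted p = 0.0557).

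Recombination genes moved further than in E112K. Of 22 tested, 17 rose, 3 fell and 2 did not pass, and 14 rose at least 2-fold, where 10.1% of all tested genes did. The median log2 change was 1.23 against WT, beside 0.47 in E112K. Of the 22, 17 were higher than in E112K, where 40.2% of all tested genes were. The largest rise was that of mde2, which is needed for meiotic double-strand breaks, at 0.301, 0.932 and 0 CPM in WT, at 0.488, 0.52 and 0.414 in E112K and at 26.2, 21.1 and 21.7 in the double mutant. WT and E112K overlapped near 0 and the double mutant lay far above both, with a log2 change of 5.79 ± 0.32 (SE, adjusted p = 1.95e-09). The gene overlaps nut2 on the opposite strand. For rec12, the Spo11-type nuclease that cuts DNA in meiosis, the libraries stood at 7.89, 7.84 and 7.31 CPM in WT, at 8.1095, 8.27 and 9.48 in E112K and at 22, 23.0 and 23.3 in the double mutant. WT and E112K were close, and the double mutant was 2.96-fold above WT. The linear-element gene mug20, of the meiotic chromosome axis, rose 7.47-fold and the break-formation gene rec24 rose 4.4-fold. The meiotic recombinase gene dmc1 rose 3.48-fold, most of it already present in E112K (68.1 ± 3.33 CPM beside 77.0 ± 2.42 CPM). Against the direction of the list, the meiotic cohesin gene rec8 changed by -0.56, mcp6 by -0.69 and mcp7 by -1.44 ± 0.067 (SE, adjusted p = 3.26e-10). The gene mcp7 overlaps ubp8 on the opposite strand, which rose 1.58-fold. The members rec14 and mcp5 did not pass.

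Promoters of the recombination genes often hold the MCB element ACGCGT, the sequence bound by the MBF complex that controls S-phase genes. In windows of 250 bases before and 50 bases after each gene start of the RefSeq annotation, a match on either strand was found for 13 of 22 recombination genes (59.1%), beside 3.24% of 5026 tested genes. The 13 include rec8 and mcp6, which fell in the double mutant. The windows of rec12 and dmc1 are shown as examples of a member that rose mostly in the double mutant and of one that had risen in E112K, and the capitals mark ACGCGT. They lie on the plus strand of ASM294v3 at chrI:1772675-1772974 and chrI:3382014-3382313.
rec12: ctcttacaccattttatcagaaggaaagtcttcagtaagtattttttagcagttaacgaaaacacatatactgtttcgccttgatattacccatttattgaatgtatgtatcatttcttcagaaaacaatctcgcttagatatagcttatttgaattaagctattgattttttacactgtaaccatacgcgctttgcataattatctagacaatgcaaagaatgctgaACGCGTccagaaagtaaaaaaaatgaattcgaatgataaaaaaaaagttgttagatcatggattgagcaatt
dmc1: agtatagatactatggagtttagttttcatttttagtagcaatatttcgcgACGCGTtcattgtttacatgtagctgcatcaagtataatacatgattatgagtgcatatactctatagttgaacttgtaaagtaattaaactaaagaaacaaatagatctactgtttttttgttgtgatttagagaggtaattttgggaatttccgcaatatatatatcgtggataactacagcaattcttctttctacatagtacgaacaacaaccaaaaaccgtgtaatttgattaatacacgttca
The match begins 22 bases before the gene start in rec12 and 199 bases before it in dmc1. Of 20 MBF target genes of vegetative S phase, 6 hold the element in the same window (30%), and 11 of the 20 rose (55%, beside 41.7% of all tested genes), 5 fell and 4 did not pass. The ribonucleotide reductase gene cdc22 rose 1.6-fold, the dUTPase gene dut1 2.27-fold and the mitotic inhibitor kinase gene mik1 1.85-fold, while spd1, which encodes an inhibitor of ribonucleotide reductase, changed by -1.11 ± 0.048 (SE, adjusted p = 1.57e-10). A match describes these letters in the window and does not show binding.

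Genes of spore formation rose in 24 of 27 cases (88.9%, beside 41.7% of all tested genes), fell in 2 and did not pass in 1. Of them 12 were at least 2-fold higher. Against E112K, 21 were higher and 5 lower, beside 40.2% and 38.6% of all tested genes. The endo-beta-glucanase gene eng2, whose product helps to open the ascus, stood at 109, 113 and 121 CPM in WT, at 119.6, 120.3 and 117 in E112K and at 1794, 1804 and 1868 in the double mutant. Libraries of WT and E112K overlapped, and all of E112K clr6-1 lay far above them, with 4.0 ± 0.042 (SE, adjusted p = 6.86e-16) against WT. For meu14, needed to build the forespore membrane, the libraries stood at 14.1, 14.8 and 12.13 CPM in WT, at 15.7, 14.7 and 16.1 in E112K and at 127, 125 and 121 in the double mutant. This is a 9.08-fold rise over WT and an 8.02-fold rise over E112K. The spore-coat gene isp3 rose 8.41-fold, from 19.7 ± 0.616 to 166 ± 8.41 CPM, with E112K in between at 43.6 ± 0.784 CPM. The kinase-regulator gene spo6, which overlaps lam2, rose 8.45-fold, and spo13, which overlaps ung1, rose 14.1-fold. The members that fell, spo14 and spo3, changed by -0.099 and -0.10. The call of spo14 was lost without the first WT library (adjusted p = 0.0856) and that of spo3 in 9 of 16 alternatives, DESeq2 among them (adjusted p = 0.0877). The chitin deacetylase gene cda1 did not pass (-0.21, adjusted p = 0.065).

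Wider groups of genes named for their induction in meiosis moved the same way. Of 102 mug (meiotically upregulated gene) members tested, 73 rose (71.6%, beside 41.7% of all tested genes), 17 fell and 12 did not pass. The median log2 change was 0.57, and 39 rose at least 2-fold. Of 18 meu (meiotic expression upregulated) members, 15 rose (83.3%), 1 fell and 2 did not pass (median 0.89). The members of these lists were chosen by name and overlap the lists above.

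The wtf genes form a family of selfish meiotic drivers that encode a spore poison and its antidote, and are transcribed mainly in meiosis. All 20 tested members were higher in the double mutant than in WT and all 20 were higher than in E112K. Over all tested genes these shares were 41.7% and 40.2%. Of them 17 rose at least 2-fold, with a median log2 change of 1.89 beside 0.54 in E112K. For wtf20 the libraries stood at 4.77, 5.27 and 5.48 CPM in WT, at 13.3, 12.7 and 13.7 in E112K and at 119.9, 124 and 122 in the double mutant. The strains do not overlap, with E112K above WT and the double mutant far above both, at 3.20 ± 0.052 (SE, adjusted p = 9.57e-14) against E112K. The next largest rises with at least 5 CPM were wtf18 at 9.77-fold, wtf6 at 8.59-fold, wtf16 at 7.83-fold and wtf10 at 5.42-fold. The smallest was wtf14, a 1.33-fold rise from 117 ± 11.6 CPM, a gene that stood lower in E112K than in WT (log2 -0.46). Members of the family resemble each other closely, so counts may be shared between them.

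**Figure D3:**
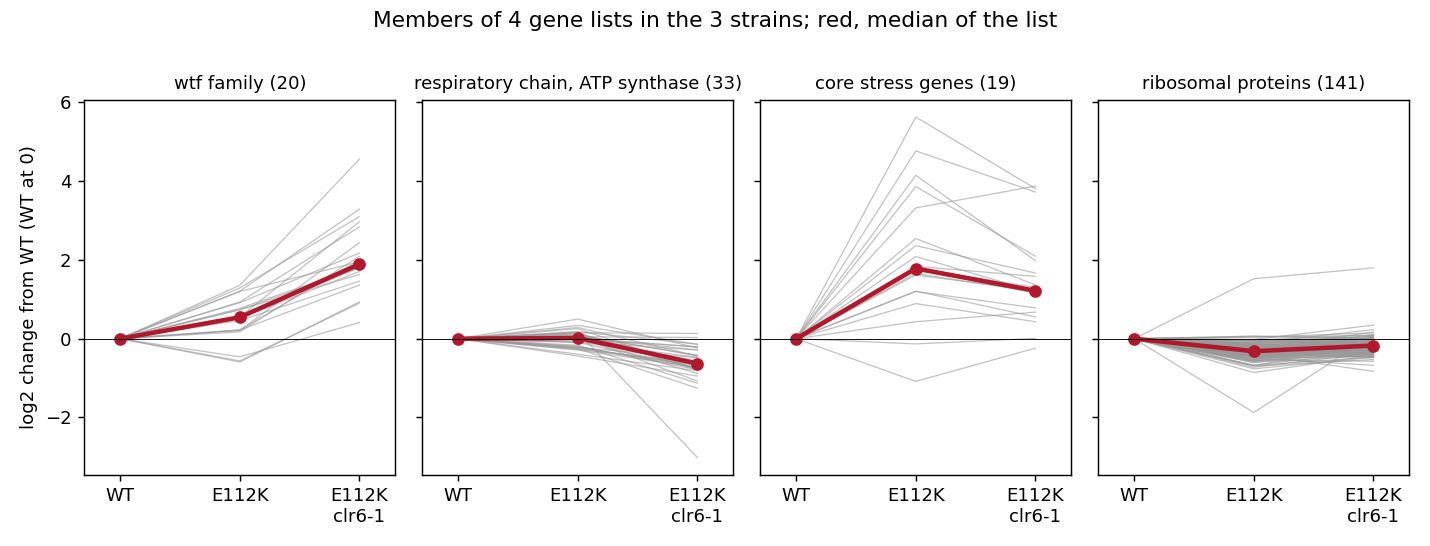
Log2 change from WT of each member (grey) and of the list median (red) in E112K and E112K clr6-1 for 4 gene lists, with WT at 0. The wtf genes rise and the respiratory genes fall mainly in the double mutant, the core stress genes are higher in E112K than in E112K clr6-1, and the ribosomal protein genes sit slightly below WT in both.

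Haploid fission yeast are of mating type P or M. M cells make M-factor from mfm1, mfm2 and mfm3, export it through Mam1 and carry the P-factor receptor Mam2, under control of Mat1-Mc. P cells make P-factor from map2 and carry the M-factor receptor Map3.

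All 8 tested M-cell genes were higher in the double mutant than in WT, where 41.7% of all tested genes were. In E112K 4 of the 8 were higher than in WT and 3 lower. Compared directly, 7 of the 8 were higher in the double mutant than in E112K, where 40.2% of all tested genes were. The cassette gene mat1-Mc was nearly silent in WT (2, 0 and 2 counts) and without counts in all 3 E112K libraries, and stood at 78.9, 72.6 and 74.0 CPM in E112K clr6-1. This is at least 1328-fold above E112K, if E112K is set to a group floor of 3 counts. Whether these reads come from mat1 or from another copy of the M cassette was not tested. Transcripts of mfm2 stood at 2.41, 2.63 and 1.72 CPM in WT, at 1.46, 1.68 and 1.19 in E112K and at 335, 319 and 313 in the double mutant. Only the double mutant is high here, with 7.15 ± 0.075 (SE, adjusted p = 6.86e-16) against WT. Levels of mfm1 and mfm3 rose from 0.876 ± 0.2 and 0.373 ± 0.142 CPM to 19.3 ± 0.826 and 7.28 ± 1.32 CPM. The transporter gene mam1 rose 1.75-fold and overlaps hbs1, and the protease gene sxa2 rose 1.76-fold and overlaps cox4. The receptor gene mam2 rose 1.99-fold over WT, most of it already present in E112K. Its log2 difference from E112K in edgeR was 0.13 (adjusted p = 0.042). That call was lost in 7 alternatives, DESeq2 among them (adjusted p = 0.0549). The adhesion gene mam3 rose 1.31-fold, and in E112K it stood at a similar 93.1 ± 4.79 CPM. The other cassette gene, mat1-Mi, had no counts in any library.

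P-cell genes did not move together. Of 4 tested, map4 rose 1.88-fold and map3 rose 1.2-fold, map2 changed by -0.18 ± 0.054 (SE, adjusted p = 0.00751), and sxa1 did not pass (0.033, adjusted p = 0.367). For map2 the libraries stood at 28.2, 26.3 and 27.5 CPM in WT, at 42.1, 41.5 and 43.2 in E112K and at 23.9, 24.4 and 24.2 in the double mutant. WT and the double mutant are close, and E112K lies above both. The cassette genes of P cells, mat1-Pc and mat1-Pi, are not analysed here. The libraries thus differ in transcripts of a mating-type cassette gene as well as in the labelled mutations, and the part of the mating type of the strains in the changes of the mating genes was not tested.

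Of 12 signalling genes that both mating types use, 9 rose (75%, beside 41.7% of all tested genes), 2 fell and 1 did not pass. The MAP kinase gene spk1 stood at 14.6, 15.2 and 13.5 CPM in WT, at 99.3, 86.5 and 85.5 in E112K and at 75.4, 77.0 and 82.0 in the double mutant. Both mutants were far above WT, and the double mutant was slightly below E112K (-0.21 ± 0.061 (SE, adjusted p = 0.00671)). The transcription factor gene map1 rose 6.19-fold and ste6, which encodes an activator of Ras1, rose 2.4-fold. Matches to TTCTTTG, the core of the TR box bound by Ste11, were found on either strand in the promoter windows of 7 of these 12 genes (58.3%) and of 5 of 8 M-cell genes (62.5%), beside 9.93% of all tested genes. They were found in 0 of 4 P-cell genes, 0 of 27 spore formation genes and 4 of 22 recombination genes (18.2%). The window of mfm1 is shown, with the match in capitals as read on the opposite strand. It lies on the plus strand of ASM294v3 at chrI:4916765-4917064, and the match begins 77 bases before the gene start.
mfm1: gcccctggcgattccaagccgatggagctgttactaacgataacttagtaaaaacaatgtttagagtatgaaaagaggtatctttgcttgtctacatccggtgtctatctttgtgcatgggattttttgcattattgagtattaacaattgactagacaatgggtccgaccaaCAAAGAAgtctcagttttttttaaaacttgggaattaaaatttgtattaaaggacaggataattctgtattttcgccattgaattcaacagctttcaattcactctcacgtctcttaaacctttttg

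Iron supply in fission yeast is controlled at the level of transcripts. When iron is plentiful, the GATA factor Fep1 represses the genes that take up iron and heme. When it is scarce, Php4 represses genes whose products consume iron.

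Uptake genes rose and most iron-using genes fell in the double mutant. Of 15 genes of iron and heme uptake, 13 rose (86.7%, beside 41.7% of all tested genes) and 2 fell. Of them 10 rose at least 2-fold, with a median log2 change over the list of 1.48. The heme transporter gene str3 stood at 3.37, 2.3 and 3.82 CPM in WT, at 332, 285 and 278 in E112K and at 1079, 969 and 969.8 in the double mutant. The strains form 3 separate groups, with a log2 change of 8.31 ± 0.12 (SE, adjusted p = 7.68e-15) against WT and 1.75 ± 0.071 (SE, adjusted p = 1.81e-10) against E112K. The siderophore transporter gene str1 stood at 127, 143 and 119 CPM in WT, at 1108, 785 and 779 in E112K and at 1498, 1453 and 1477 in the double mutant. Again the double mutant was above E112K and E112K above WT. For the ferric reductase gene frp1 the order of the mutants was the opposite, at 51.4, 56.5 and 46.8 CPM in WT, at 808, 651 and 615 in E112K and at 537, 474 and 498 in the double mutant. The oxidase gene fio1 rose 11.5-fold to 143 ± 5.54 CPM, and the heme receptor gene shu1 rose from 0.339 ± 0.0417 to 49.7 ± 3.99 CPM. The 2 members that fell were fep1 itself (log2 -0.36) and pcl1 (-0.90), a vacuolar iron importer gene that is also in the list of iron-using and iron-storing genes.

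The element bound by Fep1, written here as ATCNGATAA and searched on both strands, was found in the promoter windows of 8 of 15 uptake genes (53.3%), beside 1.43% of all tested genes. The windows of str1 and frp1 are shown because both transcripts rose strongly (11.4-fold and 9.75-fold) in the double mutant yet differ in their order between the mutants. They lie at chrII:2704407-2704706 on the plus strand and chrII:162343-162642 on the minus strand of ASM294v3, and the capitals mark the match.
str1: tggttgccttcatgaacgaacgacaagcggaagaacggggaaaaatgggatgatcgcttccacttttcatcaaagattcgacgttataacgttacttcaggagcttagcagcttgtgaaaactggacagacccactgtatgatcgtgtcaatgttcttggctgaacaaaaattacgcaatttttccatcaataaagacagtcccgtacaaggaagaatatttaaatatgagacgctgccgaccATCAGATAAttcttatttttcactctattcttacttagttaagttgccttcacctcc
frp1: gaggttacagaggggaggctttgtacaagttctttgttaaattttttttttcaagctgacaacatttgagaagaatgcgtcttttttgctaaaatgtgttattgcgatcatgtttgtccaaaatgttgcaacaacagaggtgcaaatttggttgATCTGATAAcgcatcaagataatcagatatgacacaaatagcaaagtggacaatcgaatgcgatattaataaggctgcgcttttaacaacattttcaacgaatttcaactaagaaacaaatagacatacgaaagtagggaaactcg
The match begins 7 bases before the gene start in str1 and 96 bases before it in frp1.

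Of 15 genes whose products use or store iron, 11 fell (73.3%, beside 42% of all tested genes), 1 rose and 3 did not pass. The median log2 change was -0.85. The succinate dehydrogenase gene sdh2 stood at 566, 551 and 585 CPM in WT, at 148, 238 and 231 in E112K and at 232, 260.5 and 254 in the double mutant. Both mutants were below WT, and the difference between them did not pass (0.27 ± 0.13 (SE, adjusted p = 0.0648)). The first E112K library lay apart from the other two. The biotin synthase gene bio2 changed by -1.42 and leu1, which encodes an iron-sulfur enzyme of leucine synthesis, by -1.15. The member that rose was isu1, the scaffold on which iron-sulfur clusters are built, from 139 ± 4.44 to 814 ± 11 CPM. It overlaps rna4 on the opposite strand. Of 7 heme synthesis genes, 5 fell (71.4%), 1 rose and 1 did not pass. For hem13, the coproporphyrinogen oxidase gene, the libraries stood at 1098, 1105 and 1118 CPM in WT, at 248, 235 and 244 in E112K and at 252, 243 and 251 in the double mutant. The mutants overlapped each other far below WT, at -2.15 ± 0.032 (SE, adjusted p = 9.52e-15) for the double mutant. By contrast hem12, the gene of the preceding enzyme, fell mainly in the double mutant, from 223 ± 5.61 CPM in WT through 162 ± 3.51 CPM in E112K to 80.6 ± 0.494 CPM. The first enzyme of the pathway, hem1, rose 1.16-fold.

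**Figure D4:**
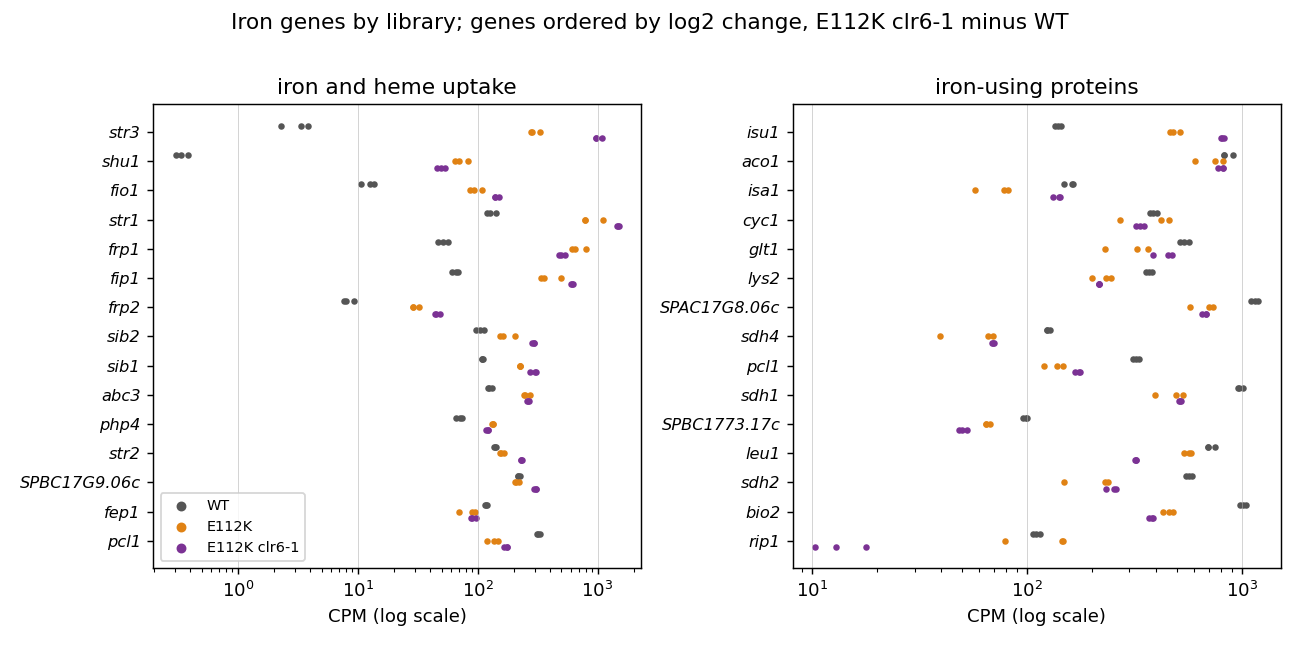
CPM on a log scale for each library of WT (grey), E112K (orange) and E112K clr6-1 (purple), for 15 genes of iron and heme uptake and 15 genes of iron-using proteins. Most uptake genes lie to the right of WT in both mutants and most iron-using genes to the left, and rip1 is far lower in the double mutant than in the other strains. The gene pcl1 is in both lists.

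Fission yeast prefers glucose and ferments it even in air, taking it up through the Ght hexose transporters. Genes for other sugars are kept off while glucose is present.

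Sugar uptake and glycolysis genes were mostly higher in the double mutant. Of 20 genes of hexose transport and glucose repression, 15 rose (75%, beside 41.7% of all tested genes), 3 fell and 2 did not pass. Of them 9 rose at least 2-fold. The transporter genes ght7 and ght3 rose from 2.31 ± 0.48 and 4.81 ± 0.243 CPM to 69.3 ± 1.75 and 134 ± 4.25 CPM. Both lie near chromosome ends. The glycerol dehydrogenase gene gld1 rose 5.51-fold, the alpha-glucosidase gene agl1 4.59-fold and the dihydroxyacetone kinase gene dak2 4.43-fold. In the other direction, the transporter gene ght8 stood at 2380.2, 2349.7 and 2228 CPM in WT, at 1826, 1857 and 1889 in E112K and at 609, 652 and 648 in the double mutant. The double mutant lay well below both other strains, with -1.87 ± 0.04 (SE, adjusted p = 2.52e-13) against WT. The high-affinity transporter gene ght5 showed a different pattern, at 3021, 2999 and 3090.4 CPM in WT, at 1196, 617 and 703 in E112K and at 2657, 2889 and 2917 in the double mutant. It was low in E112K alone, where the first library lay apart from the other two. The double mutant lay just below WT, a difference that did not pass (-0.11 ± 0.17 (SE, adjusted p = 0.576)), and 3.37-fold above E112K. The malic enzyme gene mae2 and the repressor gene scr1 changed by -0.77 and -0.33, and the activator gene rst2 did not pass.

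Of 19 genes of glycolysis and fermentation, 15 rose (78.9%, beside 41.7% of all tested genes), 2 fell and 2 did not pass. The median log2 change was 0.50. The phosphofructokinase gene pfk1 stood at 2001, 1954 and 2115 CPM in WT, at 1761, 1781 and 1664 in E112K and at 4005, 4151 and 4194 in the double mutant. WT lay slightly above E112K and the double mutant 2.03-fold above WT. The gene overlaps uba2 on the opposite strand. The aldolase gene fba1 rose 1.71-fold to 12329 ± 401 CPM and the glyceraldehyde-3-phosphate dehydrogenase gene tdh1 1.66-fold to 14887 ± 353 CPM. The second genes for enolase, eno102, and for glyceraldehyde-3-phosphate dehydrogenase, gpd3, rose 9.44-fold and 3.81-fold, and both were lower than in E112K. The alcohol dehydrogenase gene adh4 fell, with -1.39 ± 0.042 (SE, adjusted p = 5.28e-12), as did pdc102 (-1.33).

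Genes of mitochondrial respiration were lower. Of 33 nuclear genes of the respiratory chain and ATP synthase, 27 fell (81.8%, beside 42% of all tested genes) and 6 did not pass. The median log2 change was -0.63. In E112K the median was 0.018, and 29 of the 33 were lower in the double mutant than in E112K, where 38.6% of all tested genes were. Without the first E112K library, 31 of them were. The Rieske iron-sulfur subunit gene rip1 stood at 106, 110.2 and 115 CPM in WT, at 79.3, 147 and 145 in E112K and at 10.3, 13 and 17.9 in the double mutant. Its level in the double mutant did not overlap that of any other library, at -3.02 ± 0.23 (SE, adjusted p = 5.66e-08) against WT. It overlaps the phosphatase gene ppa2 on the opposite strand, and the first E112K library lay below the other two. The cytochrome c1 gene cyt1, which overlaps no listed gene, stood at 419, 413 and 436 CPM in WT, at 292, 384 and 386 in E112K and at 180.0, 177 and 174 in the double mutant. The 3 strains are separate in the order WT, E112K and double mutant. The complex III core subunit gene qcr1 changed by -1.08 ± 0.056 (SE, adjusted p = 1.11e-09), the cytochrome oxidase gene cox4 by -1.13 and the ATP synthase gene atp16 by -0.95. The alternative NADH dehydrogenase gene nde1 and cytochrome c, cyc1, were among those that did not pass (0.13 and -0.20). With only the 6 libraries of the contrast, edgeR called cyc1 lower (log2 -0.20, adjusted p = 0.000418). The same call was made without the first E112K library (adjusted p = 0.00062). In the edgeR fit of all 9 libraries no member rose, nor did any at an unadjusted p under 0.05. DESeq2 called nde1 higher (adjusted p = 0.0497), as did edgeR on the 6 libraries of the contrast (adjusted p = 0.00249), with the replicate block (adjusted p = 0.0356) and without the first E112K, the second E112K or the third WT library (adjusted p = 0.00136, 0.042 and 0.0493). Of 16 genes of the citric acid cycle, 10 fell (62.5%), 5 rose (31.2%) and 1 did not pass. The genes of succinate dehydrogenase were among those that fell, and the malate dehydrogenase gene mdh1 rose 1.56-fold.

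The stress response of fission yeast runs through the MAP kinase Sty1 and the factor Atf1, and heat-shock genes answer to Hsf1. Of 19 core stress genes, 17 rose (89.5%, beside 41.7% of all tested genes), 1 fell and 1 did not pass. The median log2 change was 1.22. The same genes had a median of 1.78 in E112K, and 15 of the 19 were lower in the double mutant than in E112K, where 38.6% of all tested genes were. The small heat-shock protein gene hsp16 stood at 18.6, 21.3 and 23.1 CPM in WT, at 1105, 1018 and 990.4 in E112K and at 292, 278 and 311 in the double mutant. The double mutant was 14-fold above WT and at a log2 difference of -1.82 ± 0.058 (SE, adjusted p = 2.22e-11) from E112K. Transcripts of hsp9 and of the Hsp70 gene ssa1 showed the same order, at 528 ± 14.6 and 325 ± 22.9 CPM in the double mutant beside 2372 ± 56.2 and 1109 ± 64.1 CPM in E112K. The metallothionein gene zym1 rose 13.2-fold over WT. The sulfiredoxin gene srx1, which overlaps mph1, was an exception, 14.7-fold above WT and 1.47-fold above E112K. The thioredoxin gene trx2 fell (-0.24) and gsa1 did not pass. Of 17 genes of the Sty1 pathway itself, 10 rose (58.8%, beside 41.7% of all tested genes), 5 fell and 2 did not pass. Among these, the kinase gene sty1 changed by -0.56 ± 0.031 (SE, adjusted p = 2.13e-09) and the upstream regulator gene mcs4 by -0.79, while atf1 rose 1.71-fold.

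Heat-shock and chaperone genes were more mixed between the mutants, with 12 of 25 below E112K and 5 above it. Over all tested genes these shares were 38.6% and 40.2%. Against WT, of the 25 genes 19 rose (76%, beside 41.7% of all tested genes), 5 fell and 1 did not pass. Of the 25, 12 rose at least 2-fold. The Hsp90 gene hsp90 stood at 3075, 3269 and 3422 CPM in WT, at 7612, 8063 and 7556 in E112K and at 8954, 8775 and 9236 in the double mutant. The double mutant was the highest of the strains, 2.76-fold above WT. The constitutive Hsp70 gene ssa2 rose 2.73-fold and the co-chaperone gene sti1 3.62-fold, both also above E112K. The BAG-family gene bag101, at 77.1, 69.1 and 78.2 CPM in WT, had 0 counts in every library of the double mutant, at least 1367-fold lower. The labels do not say whether the double mutant carries the gene intact. It stood at 60.5 ± 7.16 CPM in E112K and overlaps 2 other genes, rrp42 and top3.

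Of 24 antioxidant and methylglyoxal-detoxifying genes, 17 rose (70.8%, beside 41.7% of all tested genes), 6 fell and 1 did not pass. In E112K 19 of the 24 were higher than in WT, where 37.6% of all tested genes were. The median log2 change in E112K was 0.89, beside 0.977 in the double mutant. Compared directly, 13 of the 24 were lower in the double mutant than in E112K and 8 higher, with a median log2 difference of -0.229. Over all tested genes these shares were 38.6% and 40.2%. The superoxide dismutase gene sod1 rose 2.73-fold, from 136 ± 4.06 to 371 ± 10.1 CPM. The Hsp31-type glyoxalase genes hsp3102 and hsp3105 rose 3.25-fold and 2.99-fold. Transcripts of pap1, the AP-1 factor of the oxidative stress response, fell, with -0.83 ± 0.029 (SE, adjusted p = 1.83e-11).

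Genes that make amino acids were mostly lower, apart from those of sulfur amino acids. All 15 tested genes of arginine and histidine synthesis fell, 6 of them at least 2-fold, where 42% and 3.24% of all tested genes did so. The median log2 change was -0.764, beside -0.554 in E112K, where 13 were lower than in WT. The argininosuccinate synthase gene arg12 stood at 836, 796 and 863 CPM in WT, at 375, 373 and 368 in E112K and at 227, 234 and 234 in the double mutant. The strains are separate, with E112K between WT and the double mutant. The genes arg4, arg3 and his2 changed by -1.58, -1.48 and -1.36. Of 32 further amino acid genes, 26 fell (81.2%), 3 rose and 3 did not pass, with ser3, leu2 and lys1 at -1.46, -1.41 and -1.29. In E112K 27 of the 32 were lower than in WT, with a median log2 change of -0.447 beside -0.577 in the double mutant. The glutamate dehydrogenase gene gdh2 rose 2.17-fold, against the list, and overlaps SPCC132.03. Of 12 purine synthesis genes, 11 fell (91.7%) and 1 did not pass, with ade2 at -1.08. In E112K 10 of the 12 were lower than in WT, with a median log2 change of -0.384 beside -0.39 in the double mutant. Sulfur amino acid genes were split, with 6 higher, 8 lower and 2 not passed of 16. The ATP sulfurylase gene sua1 rose 2.15-fold to 2386 ± 69.9 CPM from 1111 ± 69.7 CPM in WT, and stood at 1007 ± 24.8 CPM in E112K.

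Uracil genes differed widely between the strains. The gene ura4, an auxotrophic marker for the last step of uridine monophosphate synthesis, was at 0 in all WT and all E112K libraries, against 145, 146 and 142 CPM in the double mutant, at least 2707-fold above WT. The uracil-regulated gene urg2, a uracil phosphoribosyltransferase gene, stood at 766, 707 and 788 CPM in WT, at 201, 208 and 193 in E112K and at 50.1, 50.6 and 52.9 in the double mutant. Each strain is separate, with the double mutant the lowest (-3.88 ± 0.05 (SE, adjusted p = 4.34e-15) against WT). Its co-regulated partners urg1 and urg3 changed by -3.59 and -1.74. Other marker genes were lower in the double mutant, with ade6 at -0.39, his3 at -1.10 and leu1 at -1.15. The part of these marker differences in the other results was not tested.

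Genes of ribosomes moved little. A list of 141 genes was drawn by the name pattern of cytosolic ribosomal proteins. It also holds rpp1, rpp21 and rpp40, which are named as ribonuclease P subunits. Of the 141, 98 fell (69.5%, beside 42% of all tested genes), 7 rose (3 without the second E112K clr6-1 library, 4 with upper-quartile scaling) and 36 did not pass. The median log2 change was -0.17, beside -0.32 in E112K. Of the list, 76 were higher in the double mutant than in E112K, where 40.2% of all tested genes were. The largest change was a rise of rps1401, 3.48-fold, a gene that overlaps aar2. Of 31 utp and nop genes of ribosome assembly, 21 rose (67.7%, beside 41.7% of all tested genes), 7 fell and 3 did not pass. Of 34 proteasome genes, 10 rose (29.4%), 16 fell (47.1%, beside 42% of all tested genes) and 8 did not pass. Against E112K 24 of the 34 were lower, where 38.6% of all tested genes were.

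The title of the study concerns genome stability. Of 42 DNA damage and repair genes tested, 29 rose (69%, beside 41.7% of all tested genes), 9 fell and 4 did not pass, and the median log2 change was 0.23. The end-resection gene ctp1 stood at 48.1, 50.4 and 53.7 CPM in WT, at 91.9, 94.5 and 92.3 in E112K and at 198, 193 and 193 in the double mutant. The strains are separate, in the order WT, E112K and double mutant, at 1.94 ± 0.038 (SE, adjusted p = 1.27e-13) against WT. The recombination gene swi5 rose 2.58-fold and overlaps mis12. The checkpoint kinase gene tel1 rose 2.1-fold and its partner nbs1 1.87-fold, and the end-joining gene xlf1 rose from 4.5 ± 0.545 to 12.2 ± 0.969 CPM. The 9-1-1 clamp gene hus1 changed by -0.73. Replication genes showed no common direction, with 14 of 34 higher (41.2%), 16 lower (47.1%) and 4 not passed. Over all tested genes 41.7% were higher and 42% lower. The GINS subunit gene psf3 changed by -1.15 and the origin-binding gene orc4 rose 1.98-fold.

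Kinetochore and checkpoint genes were split as well, with 18 of 44 higher (40.9%), 16 lower (36.4%) and 10 not passed. These shares lie near those of all tested genes, 41.7% and 42%. Besides cnp1, the DASH complex gene spc34 rose, at 0, 1.21 and 2.6 CPM in WT, at 17.4, 16.2 and 21.4 in E112K and at 27.7, 31.3 and 25.8 in the double mutant. Both mutants were far above WT, at 4.51 ± 0.36 (SE, adjusted p = 8.61e-08) for the double mutant. The DASH gene dam1, at 0 counts in WT, stood at 11.4, 9.05 and 10.7 CPM and overlaps csr101. The CENP-C gene cnp3 did not share its fall in E112K, at 205, 209 and 219 CPM in WT, at 87.1, 86.4 and 83.5 in E112K and at 266, 261 and 259 in the double mutant. The double mutant was above WT by 0.31 ± 0.03 (SE, adjusted p = 4.82e-07) and 3.06-fold above E112K. Of 19 cohesin and condensin genes, 11 rose (57.9%, beside 41.7% of all tested genes), 3 fell and 5 did not pass. Against E112K 16 of the 19 were higher, where 40.2% of all tested genes were. The cohesin regulator gene pds5 rose 1.73-fold and the loader gene mis4 1.57-fold.

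Cell wall genes rose in part. Of 20 glucan synthase and glucanase genes, 14 rose (70%, beside 41.7% of all tested genes), 3 fell and 3 did not pass. The alpha-glucanase gene agn2, which acts with Eng2 in opening the ascus, stood at 64.3, 65.7 and 69.9 CPM in WT, at 50.4, 46.1 and 49.97 in E112K and at 446, 458 and 476 in the double mutant. WT was above E112K, and the double mutant was 6.91-fold above WT. The glucan synthase homologue genes mok14 and mok11 rose 2.59-fold and 2.08-fold. The septum counterparts of eng2 and agn2 moved the other way, with eng1 at -0.38 ± 0.054 (SE, adjusted p = 2.16e-05) and agn1 at -0.15. Of 22 autophagy and vacuole genes, 13 rose (59.1%), 6 fell and 3 did not pass, with atg101 at 4.11-fold, the ubiquitin-like gene atg8 at 2.52-fold and ctl1 at 2.64-fold.

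Most of the largest rises by fitted log2 change began from no counts in WT, so that their size depends on the fit and their order is uncertain. After ura4, the genes mug108, mde5, SPBC4F6.11c and mug143 stood at 32.2 ± 0.273, 20.7 ± 7.14, 17.9 ± 3.31 and 11.1 ± 0.972 CPM in the double mutant. The kinetochore gene dam1, SPBC336.05c, SPBC18A7.01 and apc14, a subunit gene of the anaphase-promoting complex, completed the 10 largest fitted rises together with Tf2-4. Apart from ura4 and Tf2-4, each of these overlaps another listed gene, so their reads cannot be assigned with certainty. The retrotransposon copy Tf2-4 rose from 0.107 ± 0.00563 CPM in WT to 120.2 ± 30.4 CPM in the double mutant, beside 125 ± 53.4 CPM in E112K. Of 11 Tf2 elements tested, 3 rose (27.3%), 5 fell (45.5%) and 3 did not pass, beside 41.7% higher and 42% lower of all tested genes. The elements are near-identical copies, and 4 of them have equal values in every library, for which the cause was not tested. The largest falls besides bag101 were SPBC1683.06c, a predicted uridine ribohydrolase gene with 79.0, 73.7 and 79.1 CPM in WT and 0 counts in both mutants, SPBC27B12.09c, a predicted mitochondrial FAD transporter gene (-5.02), and SPAC186.06 (-4.27). Those of SPAC750.05c, urg2, urg1, SPBC26H8.11c (-3.29), rip1 and the uracil phosphoribosyltransferase gene SPAC1399.04c (-2.96) came next.

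The ends of chromosomes I and II stood out by their position. Subtelomeres are the gene-poor stretches next to telomeres and are packed into silent chromatin, and the ends of chromosome III carry ribosomal DNA instead. Among the outermost 30 listed genes at each end, 17 of 28 tested were at least 2-fold higher at the left end of chromosome I, 17 of 28 at its right end, 16 of 27 at the left end of chromosome II and 17 of 28 at its right end, where 10.1% of all tested genes were. Over these 4 ends, 11 of 111 tested genes were at least 2-fold lower, beside 3.24% of all tested genes, and 7 of the 11 lie at the right end of chromosome I. At the ends of chromosome III the counts were 3 of 27 and 2 of 29. Median log2 changes were 1.57, 2.5, 2.56 and 1.28 at the 4 ends of chromosomes I and II, and -0.24 and -0.12 at those of chromosome III. In E112K the medians at the first 4 were 1.48, 2.58, 2.59 and 1.32. Against E112K directly, 38 of these 111 genes were higher in the double mutant and 52 lower, beside 40.2% and 38.6% of all tested genes.

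**Figure D5:**
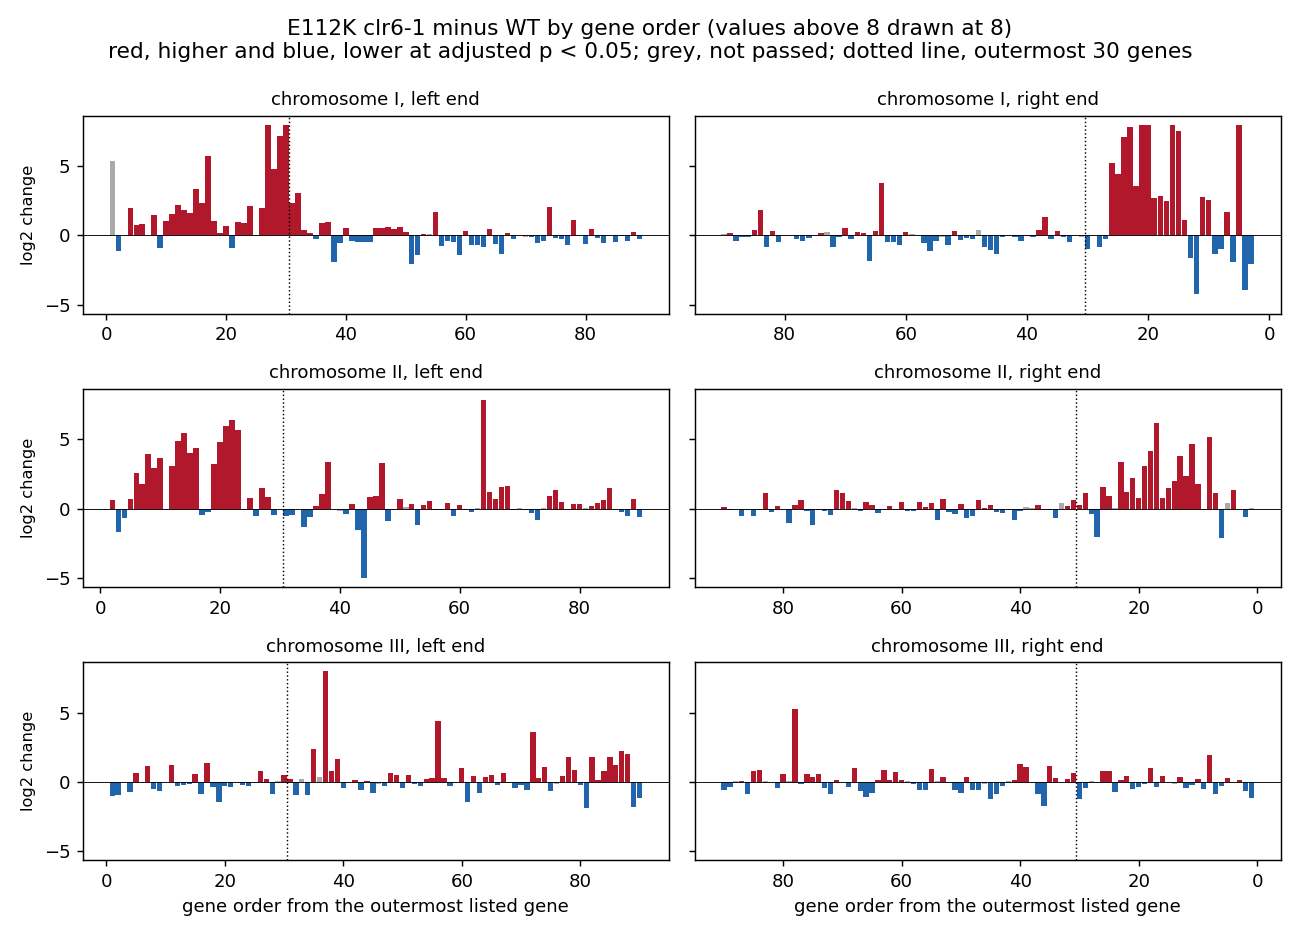
Log2 change of each tested gene, E112K clr6-1 minus WT, by its order from the outermost listed gene at the 6 chromosome ends, with red for higher, blue for lower and grey for not passed. Tall red bars crowd the outermost 30 genes of chromosomes I and II, with blue bars among the last genes of the right end of chromosome I, and no such crowding is seen on chromosome III.

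Neighbouring genes rose together in these regions. The longest run of neighbouring tested genes that all rose at least 2-fold held 13 genes near the right end of chromosome I, from SPAC869.09 to SPAC186.04c, with a median log2 change of 5.22. In this run SPAC869.05c, a predicted sulfate transporter gene, stood at 66.2, 60.8 and 67.0 CPM in WT, at 209, 189 and 185 in E112K and at 863, 711 and 721 in the double mutant. Each strain is separate, and the double mutant was 3.94-fold above E112K. The alpha-galactosidase gene mel1 rose from 0.591 ± 0.161 to 81.4 ± 1.46 CPM, and the flocculin gene pfl9 rose from 8.52 ± 0.534 to 46.6 ± 0.152 CPM, below its 120.0 ± 4.5 CPM in E112K. The next longest runs were 9 genes from SPAC977.18 to SPAC977.09c near the left end of chromosome I with a median of 1.85, and 8 genes near the right end of chromosome II with a median of 2.19. The latter holds the galactose genes gal7, gal10 and gal1, which rose 2.84-, 14.1- and 5.11-fold. For gal10 the libraries stood at 16.9, 16.5 and 21.5 CPM in WT, at 183, 145 and 135 in E112K and at 264, 245 and 264 in the double mutant. Again the strains do not overlap. No run of 4 or more neighbours fell at least 2-fold. Between the longest run and the telomere, SPAC186.06 and SPAC750.05c fell, with -4.27 and -3.96. A run of 7 genes near the left end of chromosome I, with a median of 4.79, included str3, shu1, ght3 and isp3, so these members of the iron, hexose and spore lists are also neighbours.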

How the data were processed

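Poly(A) RNA of 3 WT, 3 E112K and 3 E112K clr6-1 libraries was analysed. The authors deposited whole-number counts per gene and library beside FPKM values, per the file headers. The deposited FPKM values served only to check that both tables hold the same WT libraries, and the authors' own test columns were not used. Tools listed in the submitters' processing notes, with no versions or roles, are DESeq2, RSEM, StringTie, HISAT2, Bowtie2 and fastp. The genome build, annotation and strand setting are not stated in what was used here. Of 5212 identifiers, 5109 matched the RefSeq annotation of ASM294v3 by identifier or symbol, and 76 are assembled transcripts with no gene name.

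The counts as deposited were filtered with filterByExpr, scaled by TMM (factors 0.987 to 1.025) and fitted with edgeR 4.0.16 in R 4.3.3 by quasi-likelihood over all 9 libraries, with group means only. This leaves a common biological coefficient of variation of 0.0389. Printed p-values are Benjamini-Hochberg adjusted over 5119 genes for each contrast. SE is the absolute log2 change divided by the square root of the F statistic. Errors beside levels are SD with n = 3. A fold against a group at 0 uses a floor of 3 counts over the group and covers counting error only. Replicate libraries differed by more than sampling noise (chi-square 2.96 to 9.67 times its degrees of freedom). The fit was tested on simulated data. Alternatives were DESeq2 1.42.0, other scaling, filters and sample sets, and leaving out each library.

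The comparison, gene lists and motifs were chosen with earlier results of these data known. For lists described by example, the rule named up to 5 called members with the largest change and at least 5 CPM, and members against the majority. Further examples, among them pfk1, fba1, tdh1, hsp90, ssa2, cnp3, cdc22, hus1, sty1, atf1, mdh1, sua1, eng1, agn1 and overlapping neighbours, were chosen after their values were seen. The symbols sod2 and bop1 were dropped from their lists because the annotation gives them to other proteins.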

Additional observations from a re-analysis of the deposited data

How the results depend on the processing

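Under 16 alternatives each transcriptome-wide count of called genes stayed within 1.5 times its reported value, and no call of the 183 genes named by value changed direction. With other tools, scalings, filters or sample sets, 2008 to 2159 genes were higher and 2073 to 2247 lower than in WT, 504 to 528 and 160 to 180 of them at least 2-fold. Leaving out 1 library gave 2072 to 2161 higher and 2054 to 2147 lower, 518 to 532 and 155 to 167 of them at least 2-fold. Against E112K the ranges without 1 library were 1965 to 2126 higher and 1863 to 1983 lower. No scaling moved the median change of all genes by more than 0.0287 (log2). Calls against WT changed for 8 named genes with small changes, cda1, cyc1, ght5, hhf1, nde1, spo14, spo3 and tht2. With only the 6 libraries of the contrast, the ght5 difference passed (log2 -0.10, adjusted p = 0.0444). Against E112K 18 calls changed. That of spc34 was lost with DESeq2 (adjusted p = 0.603), htb1 passed with DESeq2 (adjusted p = 0.026) and cyc1 passed without the first E112K library (adjusted p = 7.21e-06). Of 7 members of the ribosomal protein list called higher, 4 were with upper-quartile scaling and 3 without the second E112K clr6-1 library. Without the second E112K library, the iron-using genes above E112K numbered 8. The cause of these differences was not tested. Libraries share replicate numbers across strains, but deviations of same-numbered libraries correlated at only -0.172 to 0.184. The labels do not tie the numbers to a shared culture or day. With the number as a replicate block, 2128 genes were higher and 2139 lower than in WT, 516 and 166 of them at least 2-fold, and 2050 higher and 1965 lower than in E112K. Genes at a few counts, such as mde2 in WT, are limited by depth.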
